A study of Rattus norvegicus with 8 samples.

Results

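The 7 interneuron marker genes, *Pvalb*, *Calb1*, *Calb2*, *Reln*, *Lhx6*, *Nos1* and *Erbb4*, were followed through RNA sequencing of rat hippocampus. They encode calcium-binding proteins and other interneuron markers that are not neuropeptides. They were found by NCBI GeneID among the 22601 genes listed in every library. All 7 were matched, and all 7 were among the 15593 genes with a mean of at least 0.1 FPKM (sequenced fragments divided by transcript length and by library depth) that were tested.

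All rats were wild-type Wistar animals of 180 to 220 g, whose sex and age are not given in the sources used here, and each library came from a different rat. The 3 Con. rats received saline and then the vehicle. The 3 PTZ rats received pentylenetetrazole (PTZ), a convulsant that blocks GABA-A receptors, at 35 mg/kg every 48 h over 28 days, 14 injections in all, with 60 mg/kg on the last day, and then the vehicle. The 2 Q808 rats were kindled with PTZ in the same way and then received Q808, an anticonvulsant candidate, at 30 mg/kg by gavage daily for 28 days. After the last dose of Q808 or vehicle, both kindled groups were given PTZ once more, shortly before the tissue was taken, so that PTZ kindling and this last injection cannot be told apart in PTZ against Con.

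Interneurons release GABA and set the timing and the limits of principal cell firing, and their loss or altered firing has long been studied in epilepsy. Parvalbumin fills fast-firing basket and axo-axonic cells, calretinin marks many cells that inhibit other interneurons, and reelin and neuronal nitric oxide synthase mark neurogliaform and related cells. None of the 7 genes is confined to hippocampal interneurons: calbindin is also made by dentate granule cells and some pyramidal cells, calretinin by other hippocampal cells and reelin by Cajal-Retzius cells, and neurons of the striatum and cortex express several of them. In bulk RNA, fewer cells of a type and less RNA per cell cannot be told apart.

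The libraries did not all match their tissue label equally. The striatal projection neuron markers *Drd1*, *Drd2*, *Adora2a*, *Rgs9* and *Ppp1r1b* summed to 46.0 to 61.9 FPKM in 5 libraries and to 610.9 to 1203 FPKM in the other 3, which were Con.-3, PTZ-3 and Q808-1. In these 3 striatum-rich libraries the 6 dentate granule cell markers summed to 10.7 to 15.5 FPKM, against 74.7 to 125.4 FPKM in the 5 striatum-poor ones. The 6 CA pyramidal cell markers summed to 51.6 to 121.1 against 150.5 to 196.3 FPKM, and the 8 oligodendrocyte markers to 6963 to 13758 against 2681 to 4463 FPKM. Each treatment group held exactly 1 striatum-rich library. Sequencing depth, read from the steps between the lowest FPKM values, lay between 0.854 and 1.19 times that of Con.-1.

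Genes of GABA synthesis and release were detected in all 8 libraries, but they are not confined to interneurons. *Gad1* and *Gad2*, which make GABA, ranged from 69.2 to 168 and from 25.3 to 115 FPKM, and *Slc32a1*, which loads GABA into vesicles, ranged from 24.4 to 100.3 FPKM. All 3 were highest in Con.-3, which also had the highest striatal marker level (mean log2 level 7.35). No interneuron marker gene was listed at 0 in any library.

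Levels of the 7 genes spanned more than an order of magnitude. *Calb1* (calbindin, a calcium buffer) had the highest mean over the 8 libraries, 76.4 FPKM, which placed it at rank 963 of 22601 genes, and *Pvalb* (parvalbumin, a calcium buffer of fast-firing cells) followed with 53.2 FPKM at rank 1451. *Calb2* (calretinin) averaged 10.8 FPKM and *Reln* (reelin, an extracellular guidance protein) 6.32 FPKM. *Lhx6* (a transcription factor of interneurons born in the medial ganglionic eminence), *Nos1* (neuronal nitric oxide synthase) and *Erbb4* (a neuregulin receptor) averaged 3.51, 3.19 and 2.83 FPKM. *Calb1* exceeded *Pvalb* in 7 of 8 libraries, with Q808-1 as the exception, and *Calb2* exceeded *Reln* in 7 of 8, with Con.-3 as the exception. The last 3 genes changed places from library to library: *Lhx6* was above *Nos1* in 5 of 8, and *Nos1* above *Erbb4* in 5 of 8, so these neighbours did not differ beyond their spread.

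The genes also share annotation. They were chosen as calcium-binding proteins and other interneuron markers, so the terms below go with that choice and are a description only. Among 19037 genes with a GO term in the deposited annotation, 45 (0.236%) carry regulation of cytosolic calcium ion concentration, and *Pvalb*, *Calb1* and *Calb2* are 3 of them. The same 3 carry terminal bouton, a term held by 124 genes (0.651%). *Reln* and *Lhx6* are 2 of only 4 genes annotated to cerebral cortex tangential migration, the route that interneurons take to the cortex.

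Promoter sequences are shown for *Pvalb*, the gene with the widest range between libraries, and for *Nos1*, whose window holds the most copies of a searched motif. Both are the 250 bases before the start in RefSeq on the GRCr8 assembly, *Pvalb* at chr7:111666290-111666539 and *Nos1* at chr12:44371838-44372087, each on the minus strand and written 5′ to 3′. Capitals mark TGACG, the core of the cAMP response element, on either strand.
Pvalb: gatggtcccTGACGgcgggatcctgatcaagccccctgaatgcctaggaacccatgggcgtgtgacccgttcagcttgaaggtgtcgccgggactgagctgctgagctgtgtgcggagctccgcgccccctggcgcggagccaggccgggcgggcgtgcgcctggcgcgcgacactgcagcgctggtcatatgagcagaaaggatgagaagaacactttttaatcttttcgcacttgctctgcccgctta
Nos1: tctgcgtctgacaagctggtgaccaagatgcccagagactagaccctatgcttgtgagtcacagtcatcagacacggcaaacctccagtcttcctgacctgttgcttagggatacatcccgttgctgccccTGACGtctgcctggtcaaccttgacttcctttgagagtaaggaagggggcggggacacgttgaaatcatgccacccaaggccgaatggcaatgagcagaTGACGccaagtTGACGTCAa
TGACG occurs in 18.2% of 33469 rat promoter windows of this length. *Pvalb* held 1 copy, 241 bases before the start, and *Nos1* held 4, of which the last pair overlaps, on opposite strands, 9 and 6 bases before the start. *Reln*, *Lhx6* and *Erbb4* had a window too and held none, and no window of *Calb1* or *Calb2* was used here. The *Pvalb* window holds 21 CG dinucleotides and that of *Nos1* 9, against a median of 5 over all windows. TATAAA, found in 12.9% of windows, and TAATTA, the core read by many homeodomain factors and found in 4.86%, were in none of the 5 windows, whereas CANNTG, the E-box found in 65.5% of them, was in all 5. These matches describe letters only.

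The first comparison, PTZ against Con., asks what kindling and the last PTZ injection changed together. No interneuron marker gene passed the limits of an unadjusted p under 0.05 and more than a 1.5-fold change, against 395 of 15593 genes (2.53%), and none had groups that did not overlap, against 9.15% of genes. All 7 differences were under 1.5-fold. The median of the 7 log2 differences was 0.03, beside -0.04 over all tested genes. By limma, 0 of the 7 had an unadjusted p under 0.05, against 3.78% of all genes, and every adjusted p was 0.999. None of the 7 was called with the replicate block, with the striatal set as a term or in the striatum-poor libraries alone, where 3.95%, 4.29% and 9.81% of all genes were.

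*Pvalb* stood at 40.9, 46.8 and 25.4 FPKM in the Con. libraries and at 53.9, 63.1 and 31.7 FPKM in the PTZ libraries. In both groups the striatum-rich library was the lowest, and the ranges overlapped. Between libraries of the same number the PTZ value was 1.32, 1.35 and 1.25 times the Con. value. The log2 difference was 0.38 (SE 0.32, 95% interval -0.37 to 1.13, n = 3 and 3). With the replicate number as a block the difference was the same and its SE fell to 0.11, with an adjusted p of 0.724 by limma and an unadjusted p under 0.05, as for 6.3% of all genes. With the striatal set as a term instead, the difference and its SE were also 0.38 and 0.11 (limma adjusted p = 0.483). In that fit 1304 of 15593 genes, *Pvalb* among them, had an unadjusted p under 0.05. Replicate 3 was the striatum-rich library of both groups, so the block also takes out the difference between the striatal sets. Among the 4 striatum-poor libraries the difference was 0.41 (SE 0.12, interval 0.12 to 0.71, limma adjusted p = 0.179) and the groups did not overlap, as for 54.1% of all genes with so few libraries, while 19.5% of all genes had an unadjusted p under 0.05 there, *Pvalb* among them. The 1.33-fold difference among them stayed under the 1.5-fold limit, and adjusted p-values over all alternatives lay between 0.179 and 1. Choroid plexus markers also separated these 4 libraries by group, with sums of 2529 and 2504 FPKM in Con.-1 and Con.-2 and of 407 and 276 FPKM in PTZ-1 and PTZ-2. Their part in the *Pvalb* difference was not tested.

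*Calb1* was at 72.9, 87.0 and 87.7 FPKM in Con. and at 66.7, 79.2 and 112 FPKM in PTZ. PTZ-3 was the highest of all 8 libraries, PTZ-1 was below all Con. libraries and PTZ-2 lay among them. The log2 difference was 0.03 (SE 0.20, interval -0.45 to 0.51), so that a change beyond 1.5-fold lay outside this interval in both directions.

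*Calb2* was at 10.9, 11.97 and 6.16 FPKM in Con. and at 19.3, 11.8 and 8.47 FPKM in PTZ. PTZ-1 alone stood above all other libraries, and the striatum-rich library was again the lowest of each group. The log2 difference of 0.42 (SE 0.36, interval -0.45 to 1.28) was the largest of the 7 and did not exceed the spread between libraries.

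*Reln* measured 4.47, 6.87 and 8.51 FPKM in Con. and 6.35, 8.91 and 4.64 FPKM in PTZ. The groups covered almost the same range, with a log2 difference of 0.00 (SE 0.32). *Lhx6* was the steadiest of the 7, at 2.79, 3.53 and 4.23 FPKM in Con. and 3.15, 4.26 and 3.55 FPKM in PTZ. Its highest value was only 1.53 times its lowest over the 8 libraries, and its log2 difference was 0.06 (SE 0.24).

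*Nos1* was at 1.75, 3.95 and 5.12 FPKM in Con. and at 2.54, 4.02 and 1.74 FPKM in PTZ. *Erbb4* was at 1.33, 2.86 and 5.25 FPKM in Con. and at 2.08, 3.33 and 1.78 FPKM in PTZ. For both genes Con.-3 was the highest library of the 8, while PTZ-3, also striatum-rich, was the lowest of its group. The log2 differences were -0.32 (SE 0.46) for *Nos1* and -0.23 (SE 0.50) for *Erbb4*. Among the 4 striatum-poor libraries both turned positive, to 0.27 and 0.41, with adjusted p of 0.758 and 0.610 by limma.

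**Figure D1:**
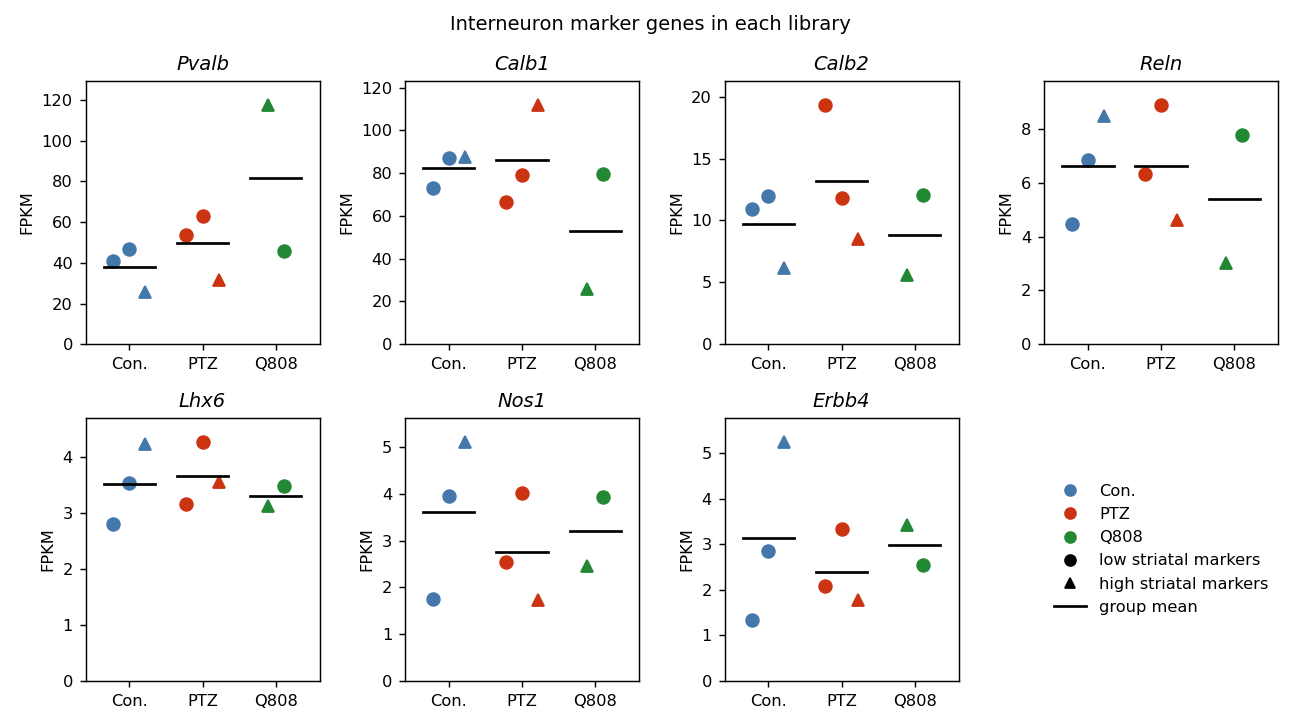
FPKM of each interneuron marker gene (linear axes from 0, 1 panel per gene) in the 8 libraries by group, with triangles for striatum-rich and circles for striatum-poor libraries and lines for group means. Q808-1 is the highest point for *Pvalb* (118 FPKM) and the lowest for *Calb1* (26.0 FPKM), whereas *Lhx6* stays between 2.79 and 4.26 FPKM in all 8.

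The comparison of Q808 with PTZ asks what the compound changed in kindled rats. No interneuron marker gene passed the limits, against 300 of 15593 genes (1.92%), and no pair of groups was without overlap, against 15.6% of genes. Of the 7 differences 4 were under 1.5-fold. By limma, none of the 7 had an unadjusted p under 0.05, against 2.19% of all genes, and the adjusted p-values were 0.952 to 0.959. None was called with the replicate block, the striatal term or the striatum-poor libraries alone, where 12.1%, 3.78% and 9.26% of all genes were. The PTZ libraries are shared with the previous comparison and the Q808 group had only 2 libraries, which differed widely from each other.

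*Pvalb* was at 118 FPKM in Q808-1 and at 45.9 FPKM in Q808-2. The first was above every other library and 2.56 times the median of the other 7, and the second lay within the range of PTZ. The log2 difference from PTZ was 0.63 (SE 0.46, interval -0.50 to 1.75). *Calb1* showed the opposite pattern, at 26.0 FPKM in Q808-1, 0.326 times the median of the other 7, and 79.7 FPKM in Q808-2. Its log2 difference from PTZ was -0.88 (SE 0.48, interval -2.05 to 0.29).

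*Calb2* was at 5.58 and 12.1 FPKM and *Reln* at 3.03 and 7.79 FPKM in Q808-1 and Q808-2. For both genes Q808-1 was the lowest of the 8 libraries and Q808-2 lay within the PTZ range, with log2 differences from PTZ of -0.60 (SE 0.45) and -0.39. *Lhx6* was at 3.11 and 3.48 FPKM, *Nos1* at 2.47 and 3.93 FPKM, and *Erbb4* at 3.41 and 2.55 FPKM. These 6 values lay within the range that the 6 Con. and PTZ libraries covered, and the log2 differences were -0.14, 0.25 and 0.34.

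Q808 against Con. gave a like result. No interneuron marker gene passed the limits, against 540 of 15593 genes (3.46%), none had groups apart, against 20.0%, and limma's adjusted p-values were 0.901 to 0.980. None had an unadjusted limma p under 0.05, against 4.28% of all genes, and none was called with the block, the term or the striatum-poor libraries alone (6.9%, 6.53% and 4.71% of all genes). *Pvalb* averaged 81.8 ± 50.7 FPKM in Q808 (SD, n = 2) against 37.7 ± 11.0 FPKM in Con. (SD, n = 3), a log2 difference of 1.01 (SE 0.47, interval -0.16 to 2.17). *Calb1* averaged 52.8 ± 38.0 against 82.5 ± 8.32 FPKM, a log2 difference of -0.85 (SE 0.47, interval -2.02 to 0.31). The other 5 genes differed by -0.39 to 0.11 on the log2 scale.

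Both wide differences rested on Q808-1. With Q808-2 left out, so that the lone Q808 library was taken to vary like the other group, *Pvalb* and *Calb1* passed the limits, with log2 differences from PTZ of 1.30 and -1.69 (limma adjusted p = 0.524 for both) and from Con. of 1.68 and -1.66 (0.359 for both). That fit called 8.34% and 11.5% of all genes. With Q808-1 left out, 0 of the 7 passed, with *Pvalb* at -0.05 and *Calb1* at -0.08 against PTZ and at 0.33 and -0.05 against Con., where 2.07% and 2.25% of all genes passed.

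**Figure D2:**
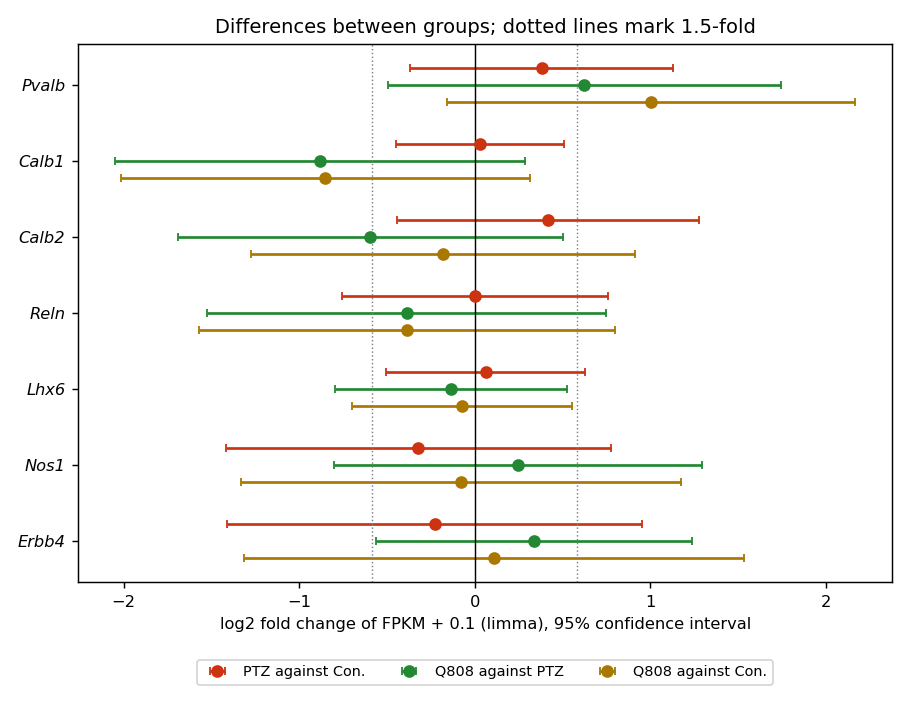
Log2 fold changes of FPKM + 0.1 from limma (points) with 95% confidence intervals (bars) for the 7 genes in the 3 group comparisons, with dotted lines at 1.5-fold. Every interval includes 0, and the widest departures are *Pvalb* and *Calb1* in the comparisons with Q808.

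Other features of Q808-1 moved with these values. All 8 oligodendrocyte genes were highest there and summed to 13758 FPKM, against 2681 to 7054 FPKM in the other 7 libraries. The 5 microglial genes summed to 131.5 FPKM, against 55.4 to 82.4, and the 5 endothelial genes to 148.0 FPKM, against 59.9 to 123.4. CA pyramidal cell genes summed to 51.6 FPKM, against 63.5 to 196.3. Over all tested genes Q808-1 was the highest library for 22.8% and the lowest for 18.5%, beside 1 highest and 3 lowest places among the 7 interneuron marker genes. Q808-2 was extreme in another way. Its choroid plexus markers summed to 6420 FPKM, against 91.6 to 2529 FPKM in Con., 276 to 488 FPKM in PTZ and 162 FPKM in Q808-1. For Q808, the fits without Q808-1 and those in the striatum-poor libraries rest on Q808-2 alone. The part of these tissue differences in the *Pvalb* and *Calb1* values was not tested.

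The striatum-rich and striatum-poor libraries were then set side by side. Since the sets were made from expression of the same libraries, the values are a description without a test. *Calb2* was the only gene of the 7 whose sets did not overlap, at 5.58 to 8.47 FPKM in the 3 striatum-rich libraries and 10.9 to 19.3 FPKM in the 5 striatum-poor ones, a log2 difference of -0.95. Among all tested genes 24.8% were apart and 9.59% were apart and lower, so that 1 of 7 is a share near the background. *Erbb4* was 0.44 higher in the striatum-rich set on the log2 scale, *Reln* 0.43 lower (log2 difference -0.43) and *Calb1* lower (-0.28), each with overlap. *Nos1* (-0.13), *Pvalb* (-0.12) and *Lhx6* (0.08) lay close to 0, although *Pvalb* was both lowest and highest in libraries of the striatum-rich set. These values depended on single libraries. Without Q808-1, *Pvalb* was lower in the striatum-rich set and apart (25.4 and 31.7 FPKM, log2 difference -0.80), *Calb1* was higher and apart (87.7 and 112 FPKM, 0.37) and *Calb2* remained apart, where 30.9% of all genes were apart. Without PTZ-3, *Erbb4* was higher and apart (0.84) beside *Calb2*, where 34.3% of all genes were, and *Nos1* and *Pvalb* turned to 0.20 and 0.14. Without Con.-3, *Pvalb* was at 0.30 and *Lhx6* at -0.036, with overlap.

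Genes of GABA synthesis and release differed between the sets too. *Slc32a1* was apart, with a log2 difference of 1.12, while *Gad1* and *Gad2* differed by 0.56 and 0.79 with overlap. When each marker was expressed relative to the mean log2 level of *Gad1*, *Gad2* and *Slc32a1*, 4 of the 7 did not overlap between the sets, each lower in the striatum-rich one. Of all genes 28.1% did not overlap on this scale and 27.2% were lower. The GABAergic level subtracted is itself higher in that set, and its genes are not confined to interneurons. *Reln* lay between -4.20 and -3.86 in the striatum-rich libraries and between -2.94 and -2.49 in the others. *Calb2* lay between -4.32 and -3.24 against -2.34 and -1.30, and *Lhx6* between -4.85 and -4.16 against -3.88 and -3.60.

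*Nos1* was apart as well, between -5.45 and -4.48 against -4.25 and -3.46, whereas *Erbb4* and *Calb1* overlapped. *Pvalb* relative to the GABAergic genes was nearly constant in the 5 striatum-poor libraries, between -0.14 and 0.23 with an SD of 0.14. *Lhx6* had an SD of 0.12 there, against a median SD of 0.41 over all tested genes. That median also takes in the spread of the subtracted GABAergic level, which ran from 5.13 to 5.91 in these libraries. In the striatum-rich libraries the same *Pvalb* ratio ran from -2.29 in Con.-3 over -1.34 in PTZ-3 to 1.04 in Q808-1.

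**Figure D3:**
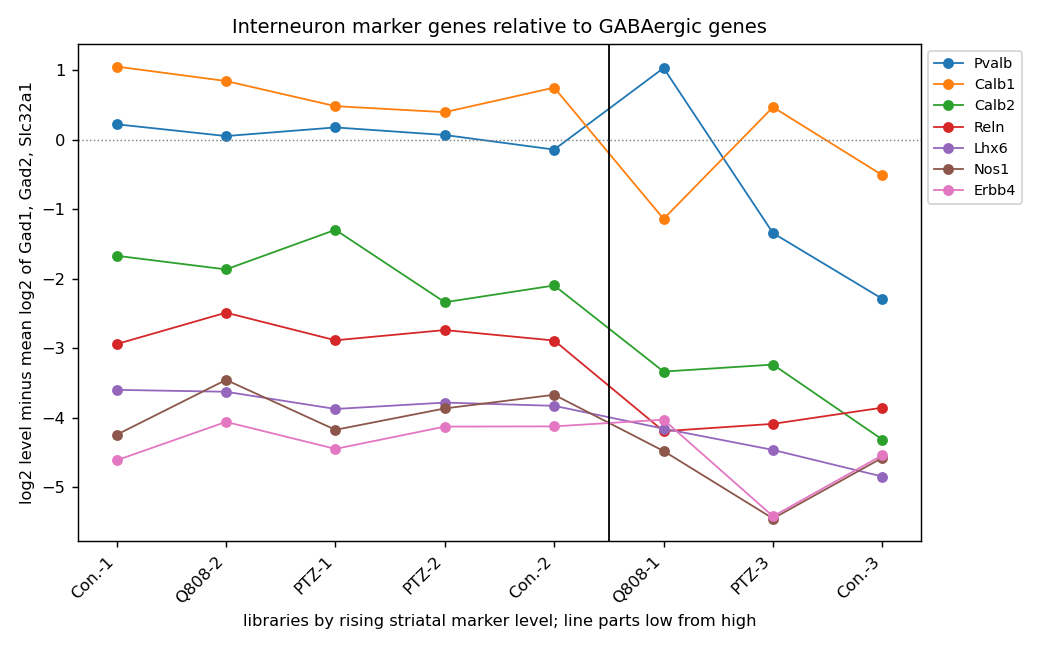
Log2 FPKM of each interneuron marker gene minus the mean log2 FPKM of *Gad1*, *Gad2* and *Slc32a1*, with libraries ordered by rising striatal marker level, a vertical line between the striatum-poor and striatum-rich sets, and thin lines that only join the points of a gene. The 3 points right of the line lie below all 5 left of it for *Calb2*, *Reln*, *Lhx6* and *Nos1*, and the 5 left *Pvalb* points sit between -0.14 and 0.23.

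Genes that work with the 7 were read from 9 related lists of 92 genes, of which 89 were tested. In PTZ against Con. 4 of the 89 (4.49%) were called, all higher, beside 2.53% of all genes. In Q808 against PTZ 1 was called (1.12%, lower) and in Q808 against Con. 1 (1.12%, higher), beside 1.92% and 3.46%.

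The interneuron peptides held 2 of the 4 genes called as higher in PTZ. *Cck* (cholecystokinin) was at 106, 108 and 54.3 FPKM in Con. and 138, 146 and 198 FPKM in PTZ, a log2 difference of 0.89 (SE 0.29), and *Vip* (vasoactive intestinal peptide) differed by 0.74 (SE 0.31). *Cck* fell by 0.66 on the log2 scale (SE 0.26) in Q808 against PTZ, and by 0.22 without a call among the striatum-poor libraries. *Sst* (somatostatin) did not pass in PTZ against Con., with 0.47 (SE 0.29), and *Npy* was listed at 0 in all 8 libraries, which does not show that neuropeptide Y was absent. *Cort* (cortistatin), of the list of other interneuron genes, rose by 0.91 (SE 0.29) in PTZ. Con.-3 was the lowest of the 8 libraries for *Cck*, *Vip* and *Cort*, and among the striatum-poor libraries their differences fell to 0.41, 0.34 and 0.55 and were no longer called. The adjusted p-values of these genes by limma were 0.999 for PTZ over Con. and 0.952 for Q808 over PTZ.

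*Nos3*, the endothelial nitric oxide synthase and a relative of *Nos1*, was called against Con. both in PTZ (0.65, SE 0.20) and in Q808 (0.94, SE 0.26, limma adjusted p = 0.901). Its values were 2.58, 3.17 and 3.47 FPKM in Con., 4.49, 4.98 and 5.06 in PTZ, and 7.14 and 4.93 in Q808, whereas *Nos1* differed from Con. by -0.32 in PTZ and by -0.08 in Q808 without a call. The other genes of the nitric oxide and cGMP list were not called, and the endothelial markers *Pecam1* (PTZ against Con., 0.63) and *Cldn5* and *Tek* (Q808 against Con., 0.65 and 0.85) were called beside *Nos3*. Their part in its value was not tested. Beside them the cell type lists held calls of *Cux2* and *Tmem119* in PTZ and of *Cux2* and *Aif1* in Q808, all higher than in Con.

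No gene of the GABAergic identity, interneuron transcription factor, perineuronal net, EF-hand calcium sensor and buffer, Reelin pathway or neuregulin and ErbB lists was called in any comparison. Median log2 differences of these lists lay between -0.09 and 0.18 in PTZ against Con. In Q808 against PTZ 12 of 13 EF-hand genes were lower without a call, and the share of all genes that were lower was not counted. The median of this list was -0.33, beside 0.10 over all tested genes. Q808-1 was the lowest of the 8 libraries for 6 of these 13 genes, beside 18.5% of all genes.

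Between striatum-rich and striatum-poor libraries the partner lists did not share 1 direction. Over all tested genes the median log2 difference was 0.10, 24.8% were apart and 9.59% were apart and lower. The neuregulin and ErbB list was higher in 11 of 12 genes with a median log2 difference of 0.39. Of its genes 3 were apart and higher, among them *Erbin* (27.6 against 12.4 FPKM on average), and 1 was apart and lower. *Dlg4*, the most abundant gene of the list, and *Erbb4* itself overlapped. The Reelin pathway had a median of -0.23, with 5 of 11 genes apart and lower. *Hapln4*, a link protein of the perineuronal nets that surround many parvalbumin cells, averaged 16.6 against 111 FPKM and was apart, and *Pvalb* was apart in the same direction only without Q808-1. Of the 7 genes of the perineuronal net list, 2 were apart and lower and 1 was apart and higher. The transcription factors had a median of 0.53, the other interneuron genes -0.22, the nitric oxide and cGMP list 0.35, the perineuronal net list -0.06, the EF-hand list -0.16 and the peptides -0.36. Markers of cholinergic neurons, which include striatal interneurons, had the highest median of all lists but the striatal one, 3.60, with 4 of 4 apart, and their summed level was 0.845 to 1.62 FPKM in the striatum-poor and 10.4 to 20.6 FPKM in the striatum-rich libraries. Of the Cajal-Retzius cells that also make reelin, 3 markers could be tested, with a median of -0.81 at summed levels of 2.01 FPKM at most. Medians were -1.69 for dentate granule, -1.13 for CA pyramidal, -0.25 for neocortical and 0.17 for thalamic neurons, 1.21 for oligodendrocytes, 0.04 for astrocytes, 0.53 for microglia, 0.68 for endothelium and -1.91 for choroid plexus.

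**Figure D4:**
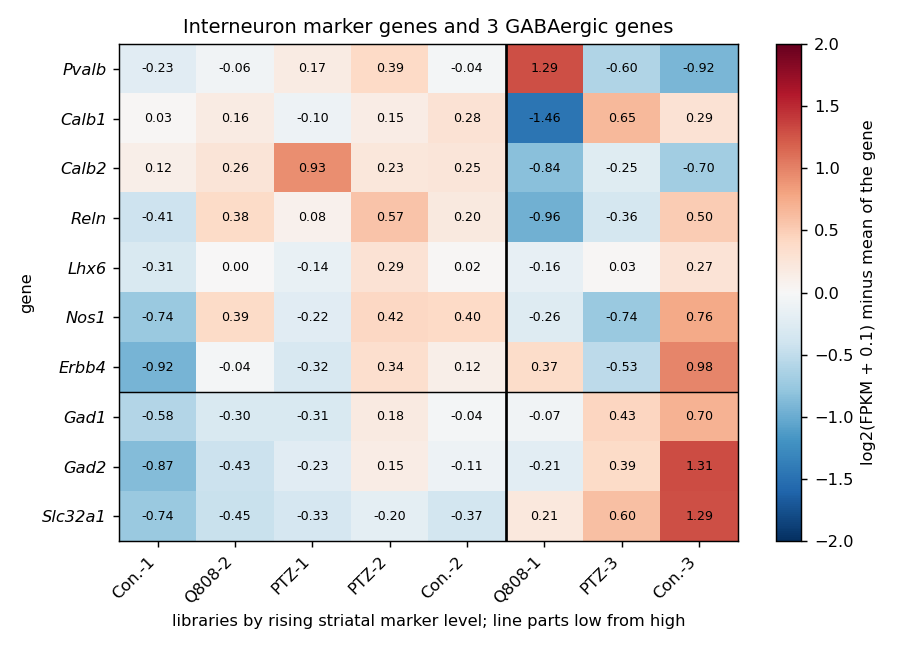
Log2(FPKM + 0.1) of the 7 interneuron marker genes and 3 GABAergic genes, each centred on its mean over the 8 libraries, with colours in log2 units and libraries ordered by rising striatal marker level. *Pvalb* is raised and *Calb1*, *Calb2* and *Reln* are lowered in Q808-1, and the 3 GABAergic genes are highest in Con.-3.

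The 7 genes did not share 1 profile over the 8 libraries. Likeness was measured as the root-mean-square difference between log2 levels that were centred but not scaled. A small value can mean a like profile or little variation in both genes, as with the steady *Lhx6* (SD 0.21 on the log2 scale). *Nos1* and *Erbb4* were each other's nearest marker, 0.316 apart. *Reln* was nearest to *Nos1* (0.346), *Lhx6* to *Reln* (0.380) and *Calb1* to *Reln* (0.469), whereas *Pvalb* was far from all, with *Lhx6* nearest at 0.708. The distance of *Lhx6* to *Reln* exceeded the median distance of *Lhx6* to all candidate genes (0.349). That of *Pvalb* to *Lhx6* exceeded the median of *Pvalb* (0.706), so neither pair was closer than most genes.

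Outside the 7, the closest of 12375 genes to *Reln* were *Cntnap2* (0.134) and *Tenm3* (0.152), to *Nos1* *Pgr* (0.102) and *Myo5a* (0.129), and to *Erbb4* *Shc3* (0.201) and *Caln1* (0.212). *Calb1* was closest to *Ldb2* (0.212) and *Vstm2a* (0.252), *Calb2* to *Homer2* (0.171) and *Syn1* (0.186), and *Lhx6* to *Peg3* (0.0727) and *Pfkp* (0.0911). *Pvalb* had the least close neighbours, *Slc2a5* (0.296) and *Plekhf1* (0.301). Median distances to all candidates were 0.349 for *Lhx6* and 0.598 to 0.706 for the other 6, and all points of a profile share the same 8 libraries.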

How the data were processed

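Hippocampal poly(A) RNA of 8 rats (about 100 mg of tissue each) was sequenced. The authors trimmed reads with Trimmomatic and deposited FPKM per gene, computed with Cufflinks from the mapped reads. The submitters' processing notes also name HISAT2, Bowtie2, SAMtools, StringTie, HTSeq and DESeq without roles, and the genome build is not given in the sources used here. FPKM keep no read counts, so counting error could not be given and the spread between rats sets the precision.

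Groups were taken from the labels. Symbols came from the RefSeq gene table (GRCr8) for 20633 of 22601 GeneIDs. Each comparison was fitted on its own groups with limma 3.58.1 (R 4.3.3, empirical Bayes with trend) on log2(FPKM + 0.1), over genes whose mean FPKM reached 0.1. Fold changes are on that scale, which understates changes of low genes. A call needed an unadjusted p under 0.05 and more than 1.5-fold, and adjusted p-values are Benjamini-Hochberg values over all tested genes. The procedure was tested on simulated data with independent noise and large seeded changes. That test does not show how it performs with small differences or with the tissue differences between these libraries. Figures and summaries used Python 3.11.15, numpy 2.4.6, pandas 2.3.3 and matplotlib 3.10.9.

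The striatum-rich set was divided off at the widest gap in the mean log2 level of a striatal projection neuron list, and *Drd1*, *Drd2*, *Adora2a*, *Rgs9* and *Ppp1r1b* alone gave the same division. Some list genes are not reported here. The main fits had no block. Only in the alternative with the replicate block were the numbers of Con. and PTZ treated as pairing the libraries. Deviations of same-numbered libraries correlated at 0.309, 0.392 and 0.472, the last between the striatum-rich Con.-3 and PTZ-3. This is a sign from the data and not from the design. Differently numbered Con.-2 and PTZ-1 correlated at 0.452 as well. Only 2 numbers are shared with Q808, whose pairs correlated at -0.463 and 0.661 with Con. and at -0.439 and 0.416 with PTZ, so that the block in those comparisons rests on the number alone.

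The genes and the 21 marker lists were chosen with earlier results of these data known. Named were the 7 genes, the called genes and the 2 most abundant genes of each list, and the 2 nearest profiles of each gene among genes averaging 1 FPKM or more. The remaining list genes named were chosen after their values were seen. Alternatives were other pseudocounts, filters, normalization, designs and subsets of libraries.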

Additional observations from a re-analysis of the deposited data

Results flagged for a closer look

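Within the striatum-poor and the striatum-rich libraries taken apart, log2 differences often pointed in opposite directions. The striatum-rich side had 1 library per group, and these contrasts between the sides were not tested. Opposite were 5 of the 7 genes in PTZ against Con., beside 57.1% of all tested genes, 4 of 7 in Q808 against PTZ, beside 52% of genes, and 6 of 7 in Q808 against Con., beside 41.4%. In PTZ against Con., which holds no Q808 library, *Nos1* had 0.27 in the striatum-poor and -1.503 in the striatum-rich libraries, *Erbb4* 0.41 and -1.51, and *Reln* 0.43 and -0.86.

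In the comparisons with Q808, the striatum-poor libraries did not overlap for *Pvalb* and *Calb1* against PTZ and for *Calb2* and *Reln* against Con. The striatum-poor Q808 side was Q808-2 alone, so that such a lack of overlap says little. Its share over all genes was not counted for these comparisons. In PTZ against Con. only *Pvalb* was apart in the striatum-poor libraries, as were 54.1% of all genes. *Pvalb* in Q808 against PTZ had a log2 difference of -0.34 in the striatum-poor and 1.89 in the striatum-rich libraries, 2.23 apart. *Calb1* in the same comparison had 0.13 and -2.10, which is -2.23 apart. *Reln* in Q808 against Con. had 0.48 and -1.46, which is -1.94 apart. *Calb2* in Q808 against Con. had 0.07 and -0.14, which is -0.21 apart.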

How the results depend on the processing

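Counts of interneuron marker genes past the limits stayed at 0 in every alternative for PTZ against Con., and at 0 for both comparisons with Q808 except without Q808-2, so that leaving out 1 library gave 0 to 2. The striatal sets of the 7 genes gave 1 to 3 apart when 1 library was left out (2 without PTZ-3, *Calb2* and *Erbb4*, and 3 without Q808-1, *Pvalb*, *Calb1* and *Calb2*). Over all genes, PTZ against Con. called 219 with a pseudocount of 1, 616 with the replicate block, 669 with the striatal set as a term and 1530 in the striatum-poor libraries. Q808 against PTZ called 193 with a mean FPKM of at least 1, 1894 with the block, 590 with the term and 1444 in the striatum-poor libraries. Q808 against Con. called 340 with a pseudocount of 1, 1076 with the block and 1019 with the term. Leaving out 1 library gave 249 to 1135, 132 to 1569 and 279 to 1799 calls (highest without PTZ-3, PTZ-3 and Q808-2). Quantile normalization gave 130 higher and 142 lower calls in Q808 against PTZ, against 212 and 88, and 283 and 158 in Q808 against Con., against 479 and 61. The block changed no call of the 7 genes.

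Signs turned in the striatum-poor libraries to -0.13 (*Calb1*), 0.27 (*Nos1*) and 0.41 (*Erbb4*) in PTZ against Con., to -0.34 (*Pvalb*), 0.13 (*Calb1*), 0.051 (*Reln*) and -0.045 (*Erbb4*) in Q808 against PTZ, and to 0.00080 (*Calb1*), 0.075 (*Calb2*), 0.48 (*Reln*), 0.14 (*Lhx6*) and 0.56 (*Nos1*) in Q808 against Con. They turned with the block to -0.033 (*Nos1*, Q808 against PTZ), 0.066 (*Lhx6*) and 0.23 (*Nos1*, both Q808 against Con.), with quantile normalization to -0.027 (*Calb1*, PTZ against Con.) and -0.048 (*Erbb4*, Q808 against Con.), and with the term to -0.051 (*Erbb4*). The cause was not tested. Without 1 library, PTZ against Con. ran from -0.18 to 0.20 (*Calb1*), -0.25 to 0.23 (*Reln*), -0.088 to 0.20 (*Lhx6*) and -0.72 to 0.23 (*Erbb4*). Q808 against PTZ ran from -0.051 to 1.30 (*Pvalb*), -1.05 to 0.28 (*Reln*) and -0.079 to 0.57 (*Nos1*). Q808 against Con. ran from -0.73 to 0.37 (*Calb2*), -1.05 to 0.28 (*Reln*), -0.22 to 0.066 (*Lhx6*), -0.51 to 0.25 (*Nos1*) and -0.38 to 0.57 (*Erbb4*). With 2 Q808 rats, a group difference cannot be told apart from that of 1 library.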
